A study of Mus musculus with 4 samples.

Results

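The 40 genes described here encode the machinery of mitosis: the cyclins and kinases that start it, the spindle, kinetochore and checkpoint proteins that carry it out, and the proteins that split the cell at its end. They were chosen by name from a list of G2/M cyclins, kinases, spindle, kinetochore and cytokinesis genes, without use of their measured values, and for each gene the probe set of highest average signal was used. Of the 40, 39 had a probe set with a single gene name, among 12393 genes in all. The remaining gene, Ccnb1, which encodes cyclin B1, was not analysed here.

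Expression was measured on 4 Affymetrix mouse arrays, 1 for each sorted population of bone marrow cells, and the study asks how Gfi1, a transcriptional repressor, directs cells towards the monocytic or the granulocytic fate. All mice were untreated 8-week-old C57BL/6 animals (at least 10 backcross generations), and all carried a GFP:Gfi1 knock-in allele, in which green fluorescent protein reports Gfi1 activity. There was no array of mice without the allele. The populations were CD11b+, Gr1-low monocytes of a GFP:Gfi1 KI/KI (Gfi1 knock-out) mouse, called Gfi1-deficient monocytes here, and 3 populations of heterozygous GFP:Gfi1 KI/WT mice: CD11b+, Gr1-high granulocytes, CD11b+, Gr1-low, GFP-high monocytes and CD11b+, Gr1-low, GFP-low monocytes. No GFP gate is named for the Gfi1-deficient cells, so genotype and gate differ together in their comparisons. The names monocyte and granulocyte come from the labels. How many mice each array represents is not given in the sources used here.

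Mitosis begins when cyclin B and the kinase CDK1 become active together, after which chromosomes condense, attach to the spindle through their kinetochores and are held by the spindle checkpoint until all are attached. The anaphase-promoting complex then marks securin and cyclin B for destruction, the chromatids part, and cytokinesis divides the cell. Most genes of this machinery are transcribed mainly in the G2 and M phases, so in a mixed population their transcript level is widely read as a measure of how many cells are dividing. In the bone marrow, granulocyte precursors divide up to the myelocyte stage and then leave the cell cycle as they mature.

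With 1 array for each population there is no replicate, so no test was made, no standard deviation between animals exists, and every value describes these arrays. Values are log2 array signals as the authors deposited them. A log2 signal of 5.18, the 40th percentile over the 4 arrays together, was set as a floor and stands for the level below which a signal was not read. A gene was counted as apart in a comparison when its log2 difference was 1 or more (2-fold). The scatter between probe sets of the same gene, given as an SD per comparison, is the error that these data allow, and it does not cover the spread between animals. The array medians lay between 5.91 and 6.01. Each of the 39 genes exceeded this floor on 1 array or more, and 38 did on all 4 arrays. The exception was Nek2, which was below it in granulocytes.

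The labels were set against marker genes. Gfi1 read 5.18 (below the floor) in Gfi1-deficient monocytes, 7.31 in granulocytes, 10.31 in GFP-high monocytes and 3.74 (below the floor) in GFP-low monocytes, so the reporter gates followed the Gfi1 signal. Itgam, the gene of CD11b, read from 10.28 to 11.92 on the 4 arrays. The 7 monocyte markers had a summed signal of log2 15.10 in Gfi1-deficient monocytes, 11.82 in granulocytes, 10.73 in GFP-high monocytes and 15.21 in GFP-low monocytes. GFP-high monocytes therefore had the lowest summed signal of monocyte markers, under that of granulocytes, and their label rests on the sort. For granulocytes minus GFP-high the median of the 7 was 0.58, with Csf1r highest at 2.13 and F13a1 lowest at -0.17. The 5 markers of early neutrophil precursors (Mpo, Elane, Prtn3, Ctsg, Ms4a3) were highest in GFP-high monocytes. Their summed signal was 13.53 in Gfi1-deficient monocytes, 10.70 in granulocytes, 15.46 in GFP-high monocytes and 10.98 in GFP-low monocytes. Gfi1-deficient cells also stood apart in sex-linked transcripts, with Xist at 5.80 against 9.56 in granulocytes, 10.93 in GFP-high monocytes and 10.42 in GFP-low monocytes.

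Mitosis genes were highest in GFP-high monocytes, next in Gfi1-deficient monocytes, close behind in GFP-low monocytes and lowest in granulocytes. Levels of different genes come from different probe sets and were not compared. This full order held for 29 of the 39 genes, and for 6 more only the Gfi1-deficient and GFP-low arrays changed places. The other 4, Nek2, Racgap1, Pttg1 and Cdc25b, each had an order of their own. The median over the 39 genes was 9.30 in Gfi1-deficient monocytes, 7.51 in granulocytes, 9.77 in GFP-high monocytes and 9.0 in GFP-low monocytes. In bulk populations a smaller share of dividing cells and less mRNA per dividing cell cannot be told apart.

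**Figure D1:**
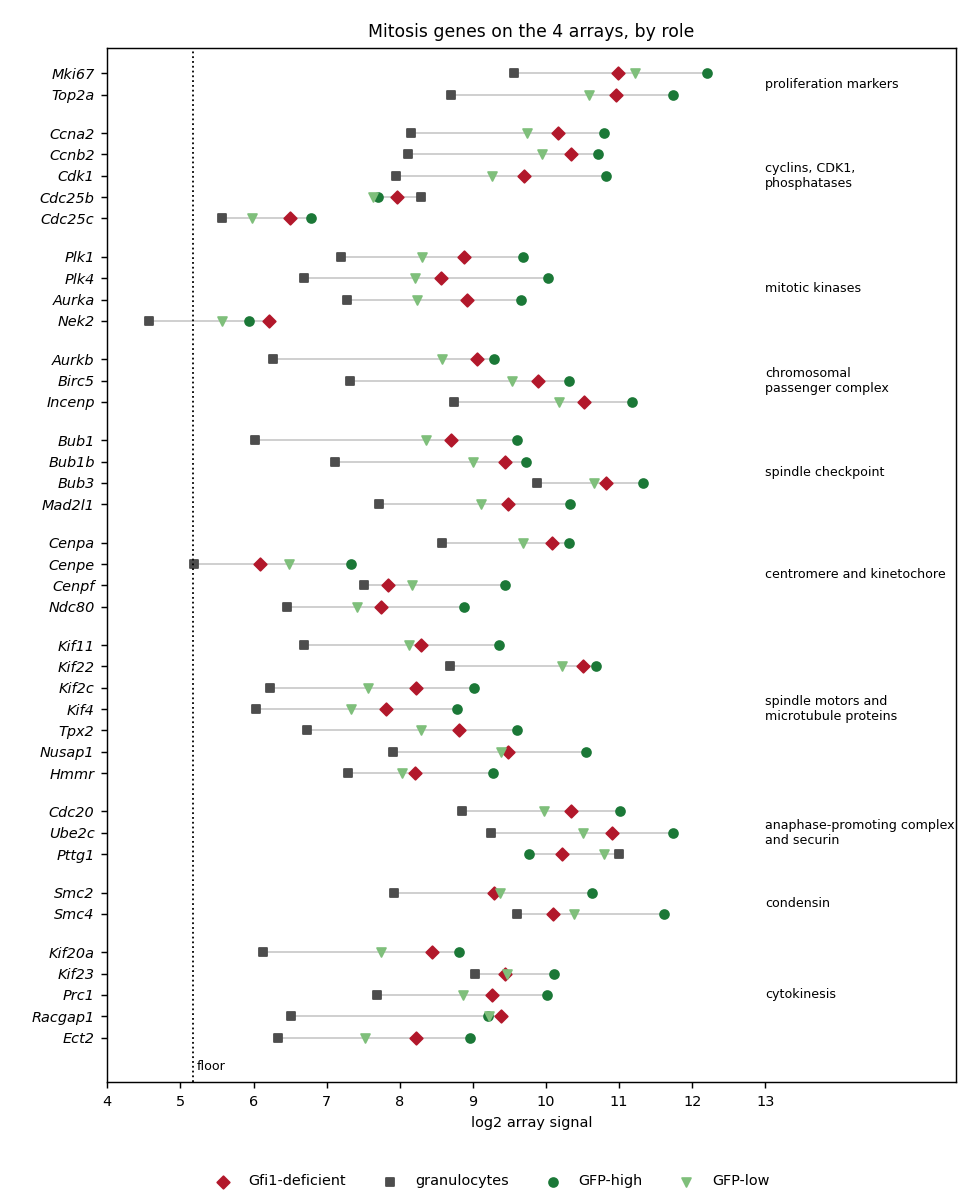
Log2 array signal (horizontal axis) of 39 mitosis genes, grouped by role, with 1 point for each array: Gfi1-deficient (diamonds), granulocytes (squares), GFP-high (circles) and GFP-low (triangles). The dotted line is the floor at 5.18, and each grey line spans the 4 values of a gene; granulocytes are at the left end for all genes but Pttg1 and Cdc25b.

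The widest contrast was between granulocytes and GFP-high monocytes. Of 39 mitosis genes, 36 were lower in granulocytes by at least 2-fold (16.4% of all 8457 genes tested), 29 of them at least 4-fold (4.43% of all genes), and 1 was at least 2-fold higher (8.93% of all genes). The median log2 difference was -2.61, a fold of 6.10, while the median over all genes was 0.03. The scatter between probe sets was 0.33 in this comparison, less than the difference of every mitosis gene. The gene with the largest difference was Bub1, at -3.58.

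Granulocytes and GFP-low monocytes were closer. Of the 39 genes, 28 were lower in granulocytes by 2-fold or more (18.2% of all 8503 genes tested) and 0 were at least 2-fold higher (10.0% of all genes), with a median of -1.31. At least 4-fold lower were 4 of the 39, Racgap1, Bub1, Aurkb and Birc5, beside 378 of all 8503 genes tested. GFP-high minus GFP-low monocytes gave 24 genes at least 2-fold higher (9.03% of all 8232 genes tested) and 1, Pttg1, at least 2-fold lower (9.61% of all genes). The median there was 1.15, a fold of 2.22, and 37 of 39 genes were above 0, beside 4305 of all 8232 genes tested. The probe set scatter was 0.36 for granulocytes minus GFP-low and 0.27 for GFP-high minus GFP-low monocytes.

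Gfi1-deficient monocytes lay nearest to GFP-low monocytes. In that comparison 0 of 39 genes reached 2-fold in either direction, while of all 8010 genes tested 0.637% were higher by that much and 1.27% lower. The median was 0.37, a fold of 1.29, against 0.03 over all genes. The probe set scatter was 0.17. By more than 2 times that scatter, 26 mitosis genes were higher (12.1% of all genes) and 3 lower (9.70% of all genes). That cut, 0.33, lies close to the median of 0.37, so many genes sat near it. With quantile normalization the median was 0.32, and the count past the cut was not recomputed. Against GFP-high monocytes, Gfi1-deficient monocytes had 11 of 39 genes at least 2-fold lower (7.81% of all 8195 genes tested) and 0 at least 2-fold higher (9.53% of all genes), with a median of -0.75. Against granulocytes, 30 of 39 were higher in Gfi1-deficient monocytes by 2-fold or more (20.3% of all 8520 genes tested) and 0 lower (11.2% of all genes), with a median of 1.66. Comparisons that use the same array share its error.

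**Figure D2:**
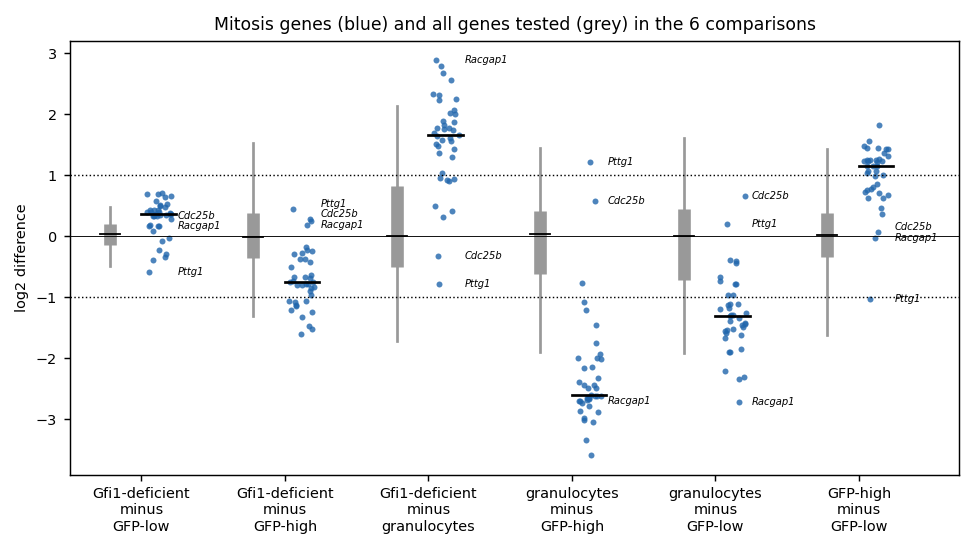
Log2 differences (vertical axis) in the 6 comparisons, with 39 mitosis genes as blue points and their median as a black line. Grey bars span the middle 50% and grey lines the 5th to 95th percentile of all genes tested, and dotted lines mark 2-fold; the mitosis medians run from -2.61 for granulocytes minus GFP-high to 1.66 for Gfi1-deficient minus granulocytes, and Pttg1 lies on the opposite side of 0 from the median in all 6.

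Markers of maturation and of other cells differed between the same arrays. The early neutrophil markers gave 5 of 5 genes at least 2-fold higher (9.03% of all genes) for GFP-high minus GFP-low (median 4.38). For Gfi1-deficient minus GFP-low they also gave 5 of 5 (0.637% of all genes), with a median of 2.47. Mature neutrophil markers, 6 in all, had a summed signal of 12.35 in Gfi1-deficient monocytes and 15.52 in granulocytes. Their sum was 12.73 in GFP-high monocytes and 12.07 in GFP-low monocytes. Taken singly, these 6 were split for Gfi1-deficient minus GFP-low, with 4 below 0 and 2 above. The median of that difference was -0.23, with Mmp9 lowest at -2.52 and Mmp8 highest at 0.71. The 4 secondary granule markers summed to 12.10 in Gfi1-deficient monocytes, 16.08 in granulocytes, 16.15 in GFP-high monocytes and 14.63 in GFP-low monocytes. The granulocyte array had the highest summed mature neutrophil signal and the lowest mitosis gene levels. Its early neutrophil markers were split against GFP-low monocytes, with Mpo (1.28) and Ms4a3 (1.30) at least 2-fold higher in granulocytes, Prtn3 (-1.44) at least 2-fold lower, and Elane and Ctsg apart by less. The part of these markers in the mitosis gene differences was not tested.

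Other dividing cells of the marrow were looked for as well. Of 6 measured stem and progenitor markers, Myb read 7.86 in Gfi1-deficient monocytes, 9.19 in granulocytes, 10.88 in GFP-high monocytes and 7.63 in GFP-low monocytes, and Kit, a growth factor receptor, was above the floor in granulocytes (6.51) and GFP-high monocytes (8.11). The other 4 markers were not highest in GFP-high monocytes. Flt3 read 7.81 in Gfi1-deficient monocytes, 7.83 in granulocytes, 7.5 in GFP-high monocytes and 8.03 in GFP-low monocytes, and Sox4 read 6.10 in Gfi1-deficient monocytes, 6.98 in granulocytes, 6.23 in GFP-high monocytes and 6.43 in GFP-low monocytes. Cd34 (5.31) and Meis1 (5.79) were above the floor in Gfi1-deficient monocytes only. The summed signal of the 6, of which Myb gave the largest part in GFP-high monocytes, was 9.33 in Gfi1-deficient monocytes, 10.06 in granulocytes, 11.26 in GFP-high monocytes and 9.25 in GFP-low monocytes. Erythroid markers, 6 measured, summed to 8.78 in Gfi1-deficient monocytes, 10.12 in granulocytes, 10.30 in GFP-high monocytes and 9.54 in GFP-low monocytes, with the globin gene Hba-a1 below the floor on all 4 arrays. B lineage markers, also 6, summed to 8.00 in Gfi1-deficient monocytes, 9.34 in granulocytes, 8.29 in GFP-high monocytes and 8.69 in GFP-low monocytes, with Pax5 and Ebf1 below the floor throughout. For granulocytes minus GFP-high the medians were 0.90 over 5 erythroid and 1.02 over 4 B lineage markers with a value. Tfrc, the transferrin receptor gene and the largest part of the erythroid sum in GFP-high monocytes, went the other way at -1.51, with 8.22 in granulocytes and 9.73 in GFP-high monocytes. Eosinophil markers, 3 measured, summed to 10.90 in Gfi1-deficient monocytes, 7.85 in granulocytes, 12.65 in GFP-high monocytes and 8.03 in GFP-low monocytes. Among T and NK cell markers only Cd3e of 3 was above the floor, from 6.18 to 6.81. The 3 megakaryocyte markers summed to between 7.74 and 8.45, and the 4 plasma cell markers to between 10.75 and 11.82. The part of progenitors and eosinophil precursors in the result was not tested.

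What these genes share in sequence was read from their promoters, since genes of the G2 and M phases are known for a short element near the transcription start, the cell cycle genes homology region (CHR), and for CCAAT boxes bound by NF-Y. RefSeq promoter windows of 300 bases (250 before to 50 after the start, build GRCm38.p6) were at hand for 33 of the 40 genes, in 36 windows, as some genes have several starts. The CHR was searched as TTTGAA or TTTAAA on both strands, and it was in 30 of 36 windows (83.3%), against 25% of 21262 windows of protein-coding genes and 27.6% of all 32851 windows. It began within 50 bases of the start in 25 windows (69.4%), against 6.79% for protein-coding genes. The box CCAAT, on either strand, was in 29 windows (80.6% against 38.2%), and both elements were in 26 (72.2% against 9.95%). The E2F-type pattern TTTNNCGC was in 4 windows (11.1% against 6.24%). The median GC content was 58.3% in the windows of mitosis genes and 56.3% in those of protein-coding genes. These are matches of letters, not bound sites.

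The 250 bases before the start are shown for the 5 genes with a CHR pattern in that stretch that differed most between granulocytes and GFP-high monocytes. Pttg1 is added, chosen after its values were seen, because it went the other way. Capitals mark both CHR patterns and the CCAAT box on either strand, and sequences are read 5′ to 3′ on the strand of the gene.
Plk4, chr3:40799701-40799950, plus strand: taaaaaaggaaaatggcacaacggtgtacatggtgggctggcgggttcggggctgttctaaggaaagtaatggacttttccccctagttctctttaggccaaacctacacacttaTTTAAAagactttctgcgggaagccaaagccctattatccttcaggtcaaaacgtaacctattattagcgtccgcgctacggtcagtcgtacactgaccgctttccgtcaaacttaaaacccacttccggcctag
Top2a, chr11:99024190-99024439, minus strand: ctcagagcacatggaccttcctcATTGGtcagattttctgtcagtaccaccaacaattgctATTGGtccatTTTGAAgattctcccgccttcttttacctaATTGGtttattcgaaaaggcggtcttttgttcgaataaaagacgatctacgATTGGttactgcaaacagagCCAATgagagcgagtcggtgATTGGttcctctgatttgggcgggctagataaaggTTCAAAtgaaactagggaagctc
Birc5, chr11:117848987-117849236, plus strand: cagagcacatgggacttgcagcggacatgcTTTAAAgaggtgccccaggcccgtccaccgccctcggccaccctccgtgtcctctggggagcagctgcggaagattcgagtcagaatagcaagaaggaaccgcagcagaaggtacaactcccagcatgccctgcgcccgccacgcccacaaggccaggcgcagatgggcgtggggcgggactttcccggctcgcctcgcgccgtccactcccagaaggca
Cdk1, chr10:69352913-69353162, minus strand: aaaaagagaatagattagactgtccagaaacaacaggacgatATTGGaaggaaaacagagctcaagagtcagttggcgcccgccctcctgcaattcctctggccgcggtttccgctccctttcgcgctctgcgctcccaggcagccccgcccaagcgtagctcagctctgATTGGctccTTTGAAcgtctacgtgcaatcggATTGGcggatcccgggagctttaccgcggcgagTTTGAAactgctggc
Kif2c, chr4:117178773-117179022, minus strand: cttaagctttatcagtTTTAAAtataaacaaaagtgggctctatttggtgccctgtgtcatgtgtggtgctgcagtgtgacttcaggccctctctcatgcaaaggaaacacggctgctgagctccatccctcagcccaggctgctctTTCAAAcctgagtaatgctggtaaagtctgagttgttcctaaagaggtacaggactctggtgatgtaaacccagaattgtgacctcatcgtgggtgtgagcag
Pttg1, chr11:43425982-43426231, minus strand: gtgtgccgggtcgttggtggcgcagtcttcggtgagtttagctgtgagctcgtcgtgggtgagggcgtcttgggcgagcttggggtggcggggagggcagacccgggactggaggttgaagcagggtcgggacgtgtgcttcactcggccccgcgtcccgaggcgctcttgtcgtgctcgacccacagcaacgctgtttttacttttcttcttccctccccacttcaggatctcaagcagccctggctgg

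Counted back from the start, the CHR pattern of Cdk1 begins at -71 and -15 and that of Top2a at -179 and -23. Top2a holds 6 CCAAT boxes and Cdk1 3. Plk4 and Birc5 have a single TTTAAA far from the start, at -135 and -220, and Kif2c has patterns at -234 and -103, all 3 genes without CCAAT. The window of Pttg1 had none of these letters, and neither had those of Nusap1 and Mad2l1, both of which were over 6-fold lower in granulocytes relative to GFP-high monocytes. For the 26 measured genes with a CHR pattern the median of granulocytes minus GFP-high was -2.55, and for the 6 without it was -1.68. Those 6 include Bub1, at -3.58, as well as Pttg1, at 1.22, so the values of both sets overlapped.

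Both proliferation markers had their lowest value in granulocytes. Mki67, the gene of the Ki-67 antigen that coats mitotic chromosomes, read 10.99 in Gfi1-deficient monocytes, 9.56 in granulocytes, 12.20 in GFP-high monocytes and 11.22 in GFP-low monocytes. Top2a, which encodes the topoisomerase that untangles sister chromatids, read 10.95 in Gfi1-deficient monocytes, 8.70 in granulocytes, 11.73 in GFP-high monocytes and 10.59 in GFP-low monocytes. Top2a was 8.21-fold and Mki67 6.24-fold lower in granulocytes than in GFP-high monocytes. A second Top2a probe set was below the floor on all arrays but that of granulocytes, where it read 5.31, and gives no direction.

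The next group holds cyclin genes and CDK1 with its activating phosphatases. Of these, 4 of 5 were at least 2-fold lower in granulocytes than in GFP-high monocytes (16.4% of all genes). Cdk1, the kinase that drives entry into mitosis, read 9.70 in Gfi1-deficient monocytes, 7.95 in granulocytes, 10.83 in GFP-high monocytes and 9.26 in GFP-low monocytes. It was 7.34-fold lower in granulocytes than in GFP-high monocytes, and 2.96-fold higher in GFP-high than in GFP-low monocytes. Its partners Ccna2 and Ccnb2, the genes of cyclins A2 and B2, differed from GFP-high monocytes in granulocytes by -2.65 and -2.61.

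The exception was Cdc25b, a phosphatase that removes inhibitory phosphates from CDKs. It read 7.97 in Gfi1-deficient monocytes, 8.29 in granulocytes, 7.71 in GFP-high monocytes and 7.63 in GFP-low monocytes. Its highest value was thus in granulocytes, and its span over the 4 arrays, 0.66 at most, stayed under 2-fold. Its relative Cdc25c was highest in GFP-high monocytes, at 6.78, and 2.31-fold lower in granulocytes, at 5.57. Between granulocytes and GFP-high monocytes the 2 phosphatase genes therefore differed in sign, each on a single probe set. For Cdc25b that difference, 0.58, was under 2 times the probe set scatter of 0.33. Against GFP-low monocytes, Cdc25c was higher in GFP-high (0.80) and in Gfi1-deficient monocytes (0.53). Cdc25b was higher in Gfi1-deficient monocytes (0.34), while its GFP-high minus GFP-low difference, 0.08, was within the probe set scatter of 0.27.

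The mitotic kinases Plk1, Plk4 and Aurka were each at least 4-fold lower in granulocytes than in GFP-high monocytes (4.43% of all genes). Plk4, the kinase that starts centriole duplication, read 8.56 in Gfi1-deficient monocytes, 6.70 in granulocytes, 10.03 in GFP-high monocytes and 8.21 in GFP-low monocytes. It had the largest difference of the 39 genes between GFP-high and GFP-low monocytes, 3.54-fold, and its 3 probe sets had the same sign. Aurka, the centrosomal Aurora kinase, read 8.92 in Gfi1-deficient monocytes, 7.27 in granulocytes, 9.66 in GFP-high monocytes and 8.23 in GFP-low monocytes. Nek2, a kinase of centrosome separation, read 6.22 in Gfi1-deficient monocytes, 4.57 (below the floor) in granulocytes, 5.94 in GFP-high monocytes and 5.57 in GFP-low monocytes. It was at least 1.69-fold lower in granulocytes than in GFP-high monocytes, a bound set by the floor, and highest in Gfi1-deficient monocytes.

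The chromosomal passenger complex corrects faulty attachments and guides cytokinesis. In granulocytes 3 of 3 genes of the complex were at least 2-fold lower than in GFP-high monocytes (16.4% of all genes). The same 3 were at least 2-fold lower than in GFP-low monocytes (18.2% of all genes). Aurkb, the kinase of the complex, read 9.06 in Gfi1-deficient monocytes, 6.27 in granulocytes, 9.29 in GFP-high monocytes and 8.57 in GFP-low monocytes. Birc5, which encodes survivin, was 7.90-fold lower in granulocytes than in GFP-high and 4.61-fold lower than in GFP-low monocytes. Incenp, the scaffold of the complex, read 10.52 in Gfi1-deficient monocytes, 8.75 in granulocytes, 11.18 in GFP-high monocytes and 10.18 in GFP-low monocytes. Only Incenp of the 3, at the threshold, was at least 2-fold higher in GFP-high than in GFP-low monocytes (9.03% of all genes). Aurkb was 1.64-fold and Birc5 1.71-fold higher. For Aurkb both probe sets have names that mark probes shared with other transcripts.

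Spindle checkpoint genes hold back anaphase. Of these, 4 of 4 were at least 2-fold lower in granulocytes than in GFP-high monocytes (16.4% of all genes). Bub1, a checkpoint kinase, read 8.70 in Gfi1-deficient monocytes, 6.02 in granulocytes, 9.60 in GFP-high monocytes and 8.36 in GFP-low monocytes, and was 12-fold lower in granulocytes than in GFP-high monocytes. Its other probe set lay near the floor, at 4.65 in Gfi1-deficient monocytes, 4.18 in granulocytes, 5.42 in GFP-high monocytes and 4.59 in GFP-low monocytes. Bub1b (6.15-fold) and Mad2l1 (6.11-fold), whose products sequester Cdc20, followed it. Bub3, which carries Bub1 to the kinetochore, read 10.82 in Gfi1-deficient monocytes, 9.87 in granulocytes, 11.33 in GFP-high monocytes and 10.66 in GFP-low monocytes, the smallest span of the 4 genes. It was 2.75-fold lower in granulocytes than in GFP-high monocytes by this probe set and, by the other probe set read on both arrays, at -0.69, under 2-fold.

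Of the centromere and kinetochore genes, 4 of 4 were at least 2-fold lower in granulocytes relative to GFP-high monocytes (16.4% of all genes). Their log2 differences ran from -1.74 to -2.43. Ndc80, the outer kinetochore protein that grips microtubules, read 7.75 in Gfi1-deficient monocytes, 6.45 in granulocytes, 8.89 in GFP-high monocytes and 7.41 in GFP-low monocytes. Cenpa, the histone variant that marks centromeres, read 10.08 in Gfi1-deficient monocytes, 8.58 in granulocytes, 10.32 in GFP-high monocytes and 9.68 in GFP-low monocytes. Cenpe, a kinetochore motor, read 6.09 in Gfi1-deficient monocytes, 5.19 in granulocytes, just above the floor, 7.34 in GFP-high monocytes and 6.48 in GFP-low monocytes. Cenpf, a large protein of the outer kinetochore, read 7.83 in Gfi1-deficient monocytes, 7.51 in granulocytes, 9.44 in GFP-high monocytes and 8.17 in GFP-low monocytes. For Cenpe and Cenpf, unlike Ndc80 and Cenpa, Gfi1-deficient monocytes lay below GFP-low monocytes.

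All 7 genes of spindle motors and microtubule proteins were at least 2-fold lower in granulocytes than in GFP-high monocytes (16.4% of all genes). GFP-high exceeded GFP-low monocytes by at least 2-fold for 6 of 7 (9.03% of all genes). Tpx2, which activates Aurora A on the spindle, read 8.80 in Gfi1-deficient monocytes, 6.73 in granulocytes, 9.60 in GFP-high monocytes and 8.29 in GFP-low monocytes. Hmmr, a spindle protein that is also a receptor for hyaluronan, read 8.21 in Gfi1-deficient monocytes, 7.29 in granulocytes, 9.28 in GFP-high monocytes and 8.03 in GFP-low monocytes. Kif2c, a kinesin that takes microtubules apart, read 8.23 in Gfi1-deficient monocytes, 6.22 in granulocytes, 9.01 in GFP-high monocytes and 7.57 in GFP-low monocytes. For granulocytes minus GFP-low, Kif2c was at -1.34 by this probe set and -1.52 by another, while the remaining one above the floor on both arrays gave 0.10. Kif11 (6.35-fold), whose motor pushes the spindle poles apart, Kif4 (6.67-fold), on the X chromosome, and Nusap1 (6.26-fold) were also lower in granulocytes than in GFP-high monocytes. Kif22, another kinesin gene, was 3.99-fold lower in granulocytes than in GFP-high monocytes by the probe set used, and its other probe sets gave log2 differences of -2.32 and -2.81. For GFP-high minus GFP-low it was the 1 spindle gene under 2-fold, at 0.46, but its other probe sets gave 1.21 and 1.13, and it passed 2-fold when probe sets ending in _x_at or _s_at were left out.

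The genes around the anaphase-promoting complex split. Ube2c, the ubiquitin-conjugating enzyme that serves the complex, read 10.90 in Gfi1-deficient monocytes, 9.24 in granulocytes, 11.73 in GFP-high monocytes and 10.50 in GFP-low monocytes. Cdc20, its activator in metaphase, was 4.48-fold lower in granulocytes than in GFP-high monocytes. Pttg1, which encodes securin, the protein that the complex destroys to let chromatids part, read 10.21 in Gfi1-deficient monocytes, 10.99 in granulocytes, 9.77 in GFP-high monocytes and 10.80 in GFP-low monocytes. Granulocytes exceeded GFP-high monocytes by 2.33-fold, and it was 2.04-fold lower in GFP-high than in GFP-low monocytes. Its order of arrays was the reverse of the order that 29 of the 39 genes had.

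The 3 Pttg1 probe sets had the same sign in all 6 comparisons. For granulocytes minus GFP-high they gave 1.22, 1.37 and 0.75, and for GFP-high minus GFP-low -1.03, -1.07 and -0.38. The last value of each set came from a probe set near the floor, which read 5.42 in Gfi1-deficient monocytes, 5.93 in granulocytes, 5.18 in GFP-high monocytes and 5.56 in GFP-low monocytes. In the 2-fold count for GFP-high minus GFP-low monocytes Pttg1 sat close to the threshold, and with the mean of its probe sets it fell under it.

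**Figure D3:**
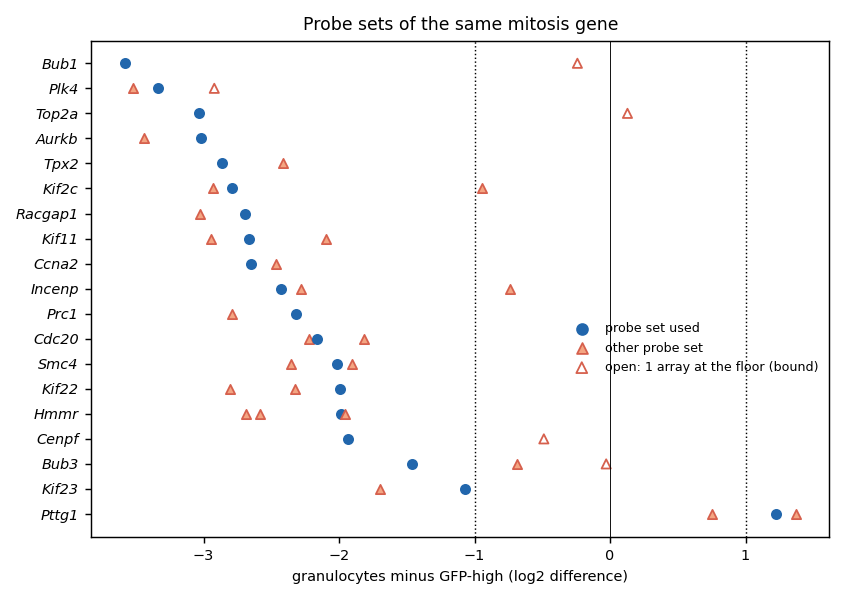
Log2 difference of granulocytes minus GFP-high monocytes (horizontal axis) for the 19 mitosis genes with several probe sets above the floor on at least 1 of these arrays, with circles for the probe set used and triangles for the others. Open symbols are bounds because 1 array was at the floor, and dotted lines mark 2-fold; the probe sets of 18 of 19 genes had the same sign, and for Top2a the other probe set is a bound of 0.13 near the floor, which gives no direction.

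Condensin, the complex that compacts chromosomes, is represented by its core subunits. Smc2 read 9.30 in Gfi1-deficient monocytes, 7.92 in granulocytes, 10.62 in GFP-high monocytes and 9.38 in GFP-low monocytes. Smc4 read 10.10 in Gfi1-deficient monocytes, 9.60 in granulocytes, 11.61 in GFP-high monocytes and 10.38 in GFP-low monocytes. Both were lower in granulocytes than in GFP-high monocytes, by 6.49-fold for Smc2 and 4.05-fold for Smc4. Gfi1-deficient monocytes were also below GFP-high monocytes, by 2.51-fold for Smc2 and 2.86-fold for Smc4. The gap between granulocytes and Gfi1-deficient monocytes was unequal, with Smc2 2.59-fold and Smc4 1.41-fold higher in Gfi1-deficient monocytes.

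Of the cytokinesis genes, 5 of 5 were at least 2-fold lower in granulocytes than in GFP-high monocytes (16.4% of all genes). Kif20a, a kinesin of the central spindle, read 8.44 in Gfi1-deficient monocytes, 6.13 in granulocytes, 8.81 in GFP-high monocytes and 7.74 in GFP-low monocytes. Ect2, the exchange factor that switches on RhoA at the cleavage plane, read 8.22 in Gfi1-deficient monocytes, 6.33 in granulocytes, 8.96 in GFP-high monocytes and 7.52 in GFP-low monocytes. Prc1, which bundles the midzone microtubules, was 4.99-fold lower in granulocytes than in GFP-high monocytes. Kif23, the kinesin of the centralspindlin complex, read 9.44 in Gfi1-deficient monocytes, 9.03 in granulocytes, 10.11 in GFP-high monocytes and 9.47 in GFP-low monocytes, a narrow span. A second Kif23 probe set gave a wider one, with -1.70 against -1.07 for granulocytes minus GFP-high.

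Racgap1, the partner of Kif23 in centralspindlin, had a pattern of its own. It read 9.39 in Gfi1-deficient monocytes, 6.51 in granulocytes, 9.2 in GFP-high monocytes and 9.22 in GFP-low monocytes. The 3 Gr1-low populations thus lay within 0.19 of each other, while granulocytes were 6.47-fold lower than GFP-high and 6.57-fold lower than GFP-low monocytes. A second probe set read 9.23 in Gfi1-deficient monocytes, 6.23 in granulocytes, 9.26 in GFP-high monocytes and 9.13 in GFP-low monocytes. Both probe sets therefore placed GFP-high and GFP-low monocytes within the probe set scatter of 0.27, where the median mitosis gene differed by 1.15. For Racgap1, the difference between Gfi1-deficient monocytes and granulocytes, 2.88, was the largest of the 39 genes.

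In Gfi1-deficient minus GFP-low monocytes 32 of 39 genes were above 0, beside 4392 of all 8010 genes tested. The highest values were those of Kif20a (0.70), Ect2 (0.69) and Aurka (0.69), whose levels are given above. The lowest were those of Pttg1 (-0.59), Cenpe (-0.39) and Cenpf (-0.34). The other genes below 0 were Smc4 (-0.28), Mki67 (-0.23), Smc2 (-0.08) and Kif23 (-0.03). Smc4 had the same sign in its 3 probe sets, while a second Kif23 probe set gave 0.27. All 4 mitotic kinases and all 5 genes of the cyclin and CDK1 group were above 0, by 0.34 to 0.69. Each exceeded 2 times the scatter (12.1% of all genes). The lowest of them, Cdc25b, sat close to that limit. The 3′ minus 5′ signal of the Actb control probe sets, a measure of RNA quality, was 0.28 in Gfi1-deficient monocytes, 0.08 in granulocytes, 0.16 in GFP-high monocytes and 0.16 in GFP-low monocytes. The same measure for Gapdh was -0.10 in Gfi1-deficient monocytes and -0.06 on each of the other arrays, so the 2 controls differed in opposite directions. The part of RNA quality in these small differences was not tested. The sex of the mice, as read from Xist, cannot be told apart from the genotype.

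**Figure D4:**
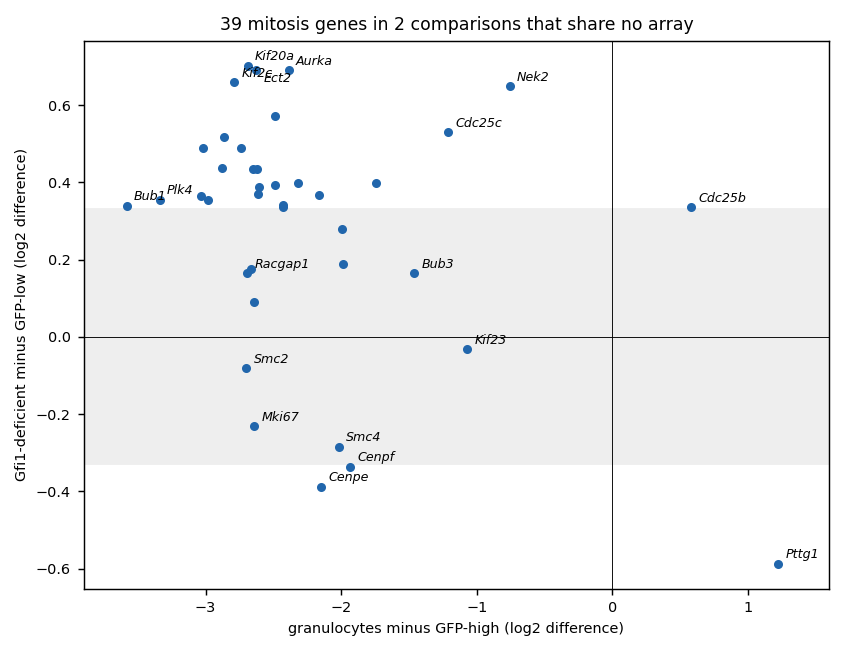
Log2 differences of 39 mitosis genes in granulocytes minus GFP-high monocytes (horizontal axis) and in Gfi1-deficient minus GFP-low monocytes (vertical axis), which use different arrays, with the grey band covering 2 times the probe set scatter of 0.17 on either side of 0. Most genes lie at the upper left, lower in granulocytes and slightly higher in Gfi1-deficient monocytes. Pttg1 alone is at the lower right and Cdc25b alone at the upper right. At the lower left are Cenpe and Cenpf, below the band, and Smc4, Mki67, Smc2 and Kif23, within it.

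Other genes of mitosis, from a list outside the 40, had medians of the same sign in these comparisons. Of 44 measured, 38 were at least 2-fold lower in granulocytes than in GFP-high monocytes (16.4% of all genes) and 0 higher (8.93% of all genes). The median was -2.37. For GFP-high minus GFP-low monocytes 26 of 44 were at least 2-fold higher (9.03% of all genes) and 0 lower (9.61% of all genes), with a median of 1.18. For Gfi1-deficient minus GFP-low monocytes 0 of 43 were at least 2-fold higher (0.637% of all genes) or lower (1.27% of all genes). The median there was 0.34. Ncapg, a condensin subunit, was 12.7-fold lower in granulocytes than in GFP-high monocytes, Tacc3, a spindle protein, 11.2-fold, and Cdca5, which encodes sororin, 10.5-fold.

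DNA replication and S phase genes gave similar values. Of 36, 34 were at least 2-fold lower in granulocytes than in GFP-high monocytes (16.4% of all genes) and 0 higher (8.93% of all genes). The median was -2.88 beside -2.61 for the mitosis genes. Dut, of nucleotide metabolism, was 14.7-fold lower, the helicase subunit gene Mcm5 14-fold and Ccne2, the gene of cyclin E2, at least 13.2-fold. Their medians were 1.42 for GFP-high minus GFP-low, against 1.15 for mitosis genes, and 0.45 for Gfi1-deficient minus GFP-low, against 0.37. No test separates the lists.

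Of 25 listed regulators of mitosis gene transcription, 19 were measured. The B-Myb gene Mybl2, whose product joins the MuvB complex at CHR elements, read 6.53 in Gfi1-deficient monocytes, 5.56 in granulocytes, 8.20 in GFP-high monocytes and 6.05 in GFP-low monocytes. Foxm1, which acts in G2 with the same complex, read 8.04 in Gfi1-deficient monocytes, 5.92 in granulocytes, 8.68 in GFP-high monocytes and 7.86 in GFP-low monocytes. Mybl2 was 4.45-fold and Foxm1 1.77-fold higher in GFP-high than in GFP-low monocytes, and both were over 6-fold lower in granulocytes than in GFP-high monocytes. Rbl1, which encodes the repressor p107, was 7.01-fold lower in granulocytes than in GFP-high monocytes. In the whole list 7 of 18 genes tested were at least 2-fold lower in granulocytes relative to GFP-high monocytes (16.4% of all genes). In that comparison 0 were at least 2-fold higher (8.93% of all genes), and the median was -0.68. Lin9, of the MuvB complex, was below the floor on all 4 arrays.

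**Figure D5:**
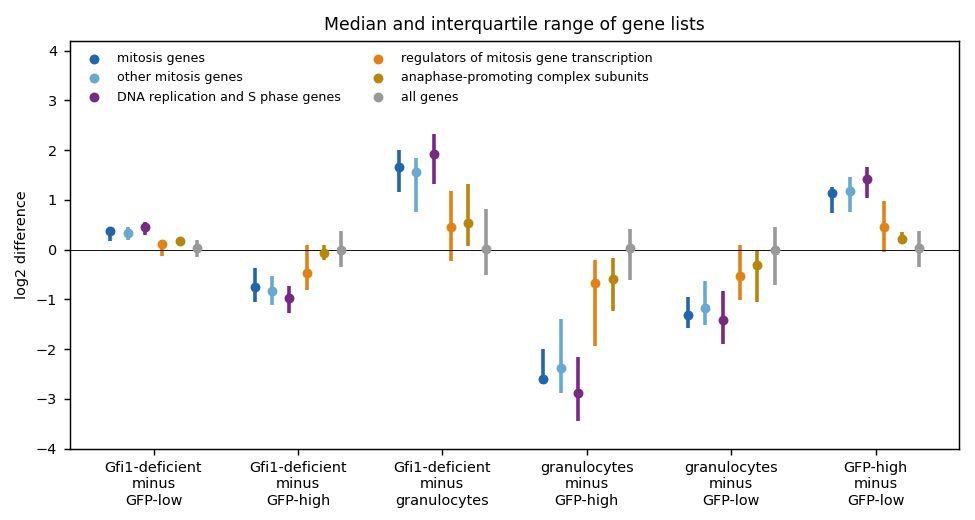
Median log2 difference (points) and middle 50% of genes (bars) for the mitosis genes, 3 further lists of cell cycle genes, the subunits of the anaphase-promoting complex and all genes tested, in the 6 comparisons. Mitosis, other mitosis and replication genes lie together in each comparison, for example at -2.61, -2.37 and -2.88 for granulocytes minus GFP-high, while all genes have medians near 0.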

How the data were processed

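The deposited table has 22690 probe sets and a single value per array. Its unit was taken as log2 from the range of 2.70 to 14.50, and how the authors corrected, summarised and normalized these log2 values is not given in the sources used here. Per the labels' protocols, 6 µg of TRIzol-extracted total RNA served to make biotinylated cRNA for the arrays. Arrays have no read depth, and their number limits the precision.

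Values were used without further scaling. Probe sets with 1 gene (20393) were named from the platform annotation, with 20364 matched by gene identifier to the table of GRCm38.p6. Values below the floor were raised to it. Where this applied to 1 array of a pair the difference is a bound, and where it applied to both none is given. Probe set scatter is the root mean square difference between the log2 differences of the 2 brightest probe sets of a gene, divided by the square root of 2. Genes were named by a rule: per role, the largest and smallest granulocytes minus GFP-high difference, unusual array orders, disagreeing probe sets, and the 3 highest and lowest in Gfi1-deficient minus GFP-low. Genes, lists and rules were chosen with earlier results of these data known, although values of the 40 genes were not used to list them. The comparison lists therefore cannot be taken as independent of these data. Promoters are RefSeq windows of GRCm38.p6, printed for the 5 largest granulocytes minus GFP-high differences with a CHR pattern. Python 3.11.15 with pandas 2.3.3 was used, and the scripts were tested on simulated data. Alternatives were other floors, quantile normalization, centring, the mean of all probe sets, and leaving out probe sets ending in _x_at or _s_at.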

Additional observations from a re-analysis of the deposited data

How the results depend on the processing

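Each count of mitosis genes at least 2-fold apart and each median was recomputed under 6 alternatives, 5 planned and 1, the centring of each array on its median gene, added after the data were seen. None of the 72 recomputed values moved by more than 1.5 times (counts) or the probe set scatter (medians). Of 1383 recomputed single-gene differences, 67 moved by the probe set scatter or more, and 0 changed direction where 2-fold apart. For granulocytes minus GFP-high monocytes the count lay between 35 and 38 and the median between -2.36 and -2.61. For GFP-high minus GFP-low monocytes the mean of all probe sets gave 19 genes against 25, and for Gfi1-deficient minus GFP-high monocytes 8 against 11. For granulocytes minus GFP-low monocytes the count fell from 28 to 23, both with the floor at the 60th percentile and with centring. Centring moved the median of all genes to 0.24 for granulocytes minus GFP-high, 0.19 for granulocytes minus GFP-low and -0.20 for Gfi1-deficient minus granulocytes. The genes that lost their 2-fold difference for granulocytes minus GFP-high under some alternative were Cenpe, Cdc25c, Bub3 and Kif23. For GFP-high minus GFP-low they were Top2a, Ccna2, Nusap1, Cenpf, Incenp and Pttg1. Leaving out _x_at and _s_at probe sets left 38 of the genes, without Aurkb. No paired analysis was possible because each population has 1 array. With 1 array each, spread between animals is unknown, and signals near the floor, such as Nek2 and Cenpe in granulocytes, give bounds or compressed differences.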

Other observations

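The anaphase-promoting complex has subunits that are not on the list of mitosis genes. Of 12 measured, 5 were at least 2-fold lower in granulocytes than in GFP-high monocytes (16.4% of all genes) and 0 higher (8.93% of all genes). The median was -0.59. For GFP-high minus GFP-low monocytes 0 of 12 were at least 2-fold higher (9.03% of all genes) or lower (9.61% of all genes). The median there was 0.21, and with 12 genes a count of 0 is not far from those shares. Anapc5 was 3.16-fold, Cdc23 3.03-fold and Cdc16 2.68-fold lower in granulocytes than in GFP-high monocytes. Cdc16 read 8.35 in Gfi1-deficient monocytes, 6.85 in granulocytes, 8.27 in GFP-high monocytes and 8.16 in GFP-low monocytes.

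A few regulators, singled out after their values were seen, had array orders unlike that of most mitosis genes. Cdkn1a, which encodes the CDK inhibitor p21, read 9.40 in Gfi1-deficient monocytes, 6.88 in granulocytes, 7.14 in GFP-high monocytes and 9.44 in GFP-low monocytes, so it was high on both arrays of intermediate mitosis gene level. Tfdp1, the DNA-binding partner of E2F proteins, read 9.28 in Gfi1-deficient monocytes, 10.56 in granulocytes, 11.44 in GFP-high monocytes and 8.99 in GFP-low monocytes, high on the arrays with the highest and the lowest mitosis gene level. E2f6, a repressor of the E2F family, read 7.58 in Gfi1-deficient monocytes, 4.76 (below the floor) in granulocytes, 7.30 in GFP-high monocytes and 7.39 in GFP-low monocytes, the order of arrays also seen for Racgap1.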
